A study of Mus musculus with 7 samples.

Results

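The 10 genes described here encode ligands and receptors of 2 growth factor families that act on fibroblasts, the fibroblast growth factors (FGFs) and the platelet-derived growth factors (PDGFs). They were chosen by symbol: the FGF ligand genes Fgf2, Fgf7 and Fgf10, the FGF receptor genes Fgfr1 and Fgfr2, the PDGF ligand genes Pdgfa, Pdgfb and Pdgfc, and the PDGF receptor genes Pdgfra and Pdgfrb. They are 10 of the 19937 genes that the arrays represent by a probe set with a single symbol, and each has 1 such probe set. The samples were mouse embryonic fibroblasts, spontaneously immortalised and cultured for 2 days in medium with 10% fetal calf serum before RNA was taken. The groups were knockout (2 clones), knockdown (2 clones) and wild type (3 clones). Each knockout clone was expanded from a mouse lacking tenascin-C (gene Tnc). The knockdown clones came from wild-type cells carrying a stably integrated hairpin RNA that targets Tnc. Tenascin-C is a glycoprotein of the extracellular matrix that is made in development and wound repair. Each clone gave 1 array; the labels do not say whether clones within a group have different animals as their source, and no sample with a control hairpin is analysed here. The p-values therefore measure the spread between these clones.

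FGFs and PDGFs are secreted factors that bind receptor tyrosine kinases at the cell surface. FGFs bind their receptors together with heparan sulphate chains, while PDGFs are dimers that bring receptor chains together. In connective tissue, PDGF receptors mark mesenchymal cells and carry much of the mitogenic response of fibroblasts to serum, and fibroblasts in turn secrete FGFs that act on neighbouring epithelium.

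The values are log2 signals, so a difference of 1 is a doubling. Tnc, the targeted gene, had log2 signals of 8.05 and 8.51 on the knockout arrays and 7.34 and 6.52 on the knockdown arrays, against 10.885, 11.42 and 11.38 on the wild-type arrays. It fell by limma's test in knockout, at a log2 change of -2.95 ± 0.295 SE (adjusted p = 0.042). In knockdown it also fell, at -4.30 ± 0.295 SE (adjusted p = 0.0339). Leaving out any 1 of the 7 arrays ended both calls, with log2 changes from -3.17 to -2.72 in knockout and from -4.70 to -3.89 in knockdown. Whether its probe set falls inside the deletion could not be told. Of 12 fibroblast markers, 10 lay above the array median on every array, against 0 of 6 endothelial, 1 of 6 macrophage and blood, 2 of 7 epithelial and 3 of 7 pericyte and smooth muscle markers. Knockout array 2 stood apart in Xist (log2 signal 8.80, against 3.51 to 3.77 on the other 6 arrays), and the Y-linked gene Uty ranged from 6.75 to 8.02 except for knockout array 2 (3.14) and knockdown array 2 (4.98). Knockout array 1 had Xist at 3.77 and Uty at 7.57, so the 2 knockout clones differed from each other in sex-linked genes. Knockout array 2 had the high Xist and low Uty of a female pattern, and knockout array 1 the male pattern of the wild-type arrays. Whether the 2 knockout clones came from different animals was not tested. Each member's changes were therefore also computed without knockout and knockdown arrays 2.

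None of the 10 genes passed the test (limma, Benjamini-Hochberg adjusted p under 0.05 over 16801 genes) in any comparison. The count called was 0 of 10 in knockout against wild type, where 0.167% of all tested genes were called, and 0 of 10 in knockdown against wild type, where 0.0179% were. It was also 0 of 10 for the mean of both deficient groups against wild type (0.0298% of genes) and for knockout against knockdown (0.375%). At an unadjusted p under 0.05 limma gave 1 gene in knockout (Pdgfra), 1 in knockdown (Pdgfrb), 2 in the deficient comparison (Pdgfra and Pdgfrb) and 2 between knockout and knockdown (Pdgfra and Fgfr2), against 12.8%, 14.1%, 12.3% and 17.9% of all tested genes. By direction, 7.33% of all tested genes were higher and 5.50% lower in knockout at that threshold, and 7.12% higher and 6.99% lower in knockdown. All 10 passed the filter on low values, each above the 25th percentile on all 7 arrays. Without knockout and knockdown arrays 2, each deficient group holds 1 array, the spread comes from wild type alone, and limma called only 1 gene in knockout and 0 in each other comparison, so the 0 of 10 found there says little about the members. The differences that stood furthest from the spread between clones were those of the PDGF receptor genes: Pdgfra was 2.67-fold lower in knockout and Pdgfrb was 2.00-fold higher in knockdown, neither past the threshold.

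**Figure D1:**
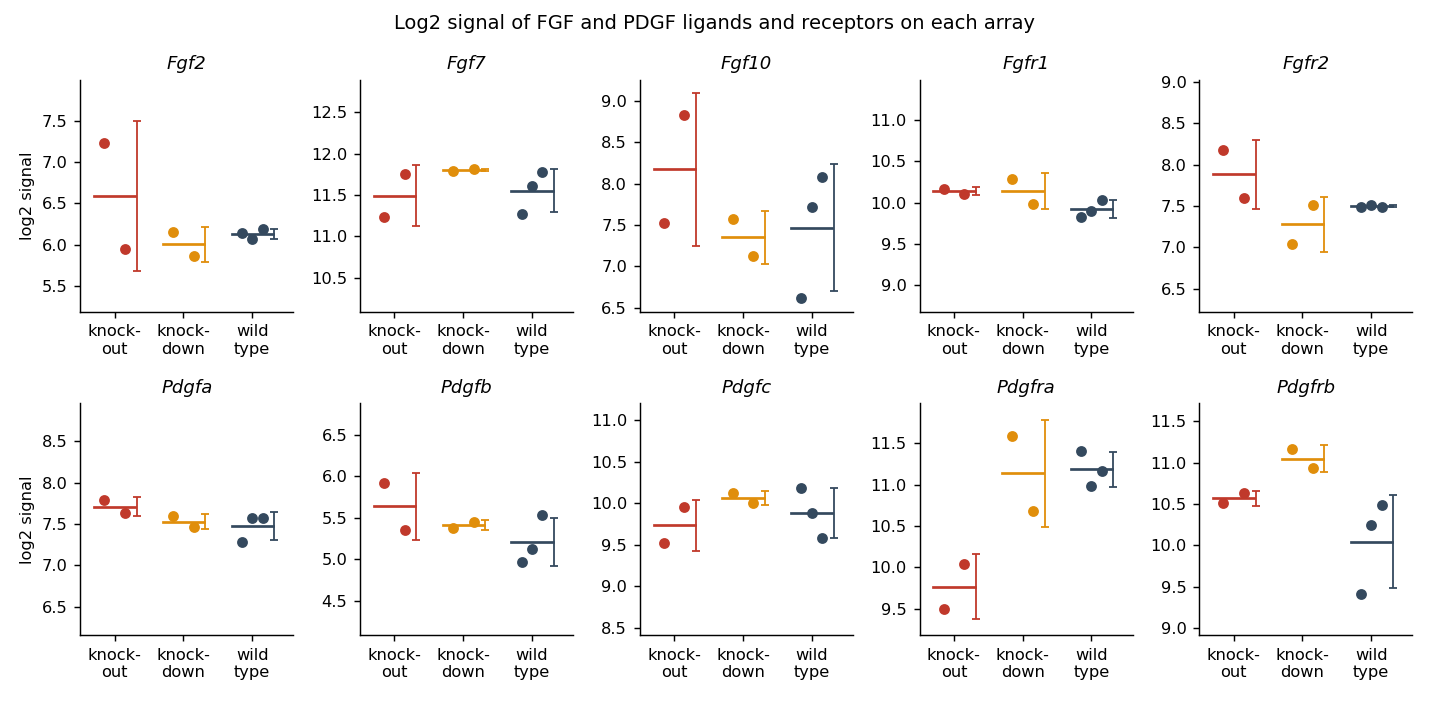
Log2 signal (vertical axes, each panel on its own range) of the 10 genes on every array, with knockout, knockdown and wild-type clones from left to right; points are arrays, lines are group means and the bars beside them are SD (n = 2, 2 and 3). Both knockout arrays lie below all others for Pdgfra (9.50 and 10.04), and all 4 deficient arrays lie above wild type for Pdgfrb.

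Promoter sequences are shown for 3 of the genes, Pdgfra, Fgf10 and Pdgfc. Pdgfra had the largest difference, and the wild-type clones of Fgf10 were furthest apart. Of the 7 members with a matched promoter, Pdgfc alone had a match to the CArG box, the motif bound by serum response factor. Each sequence runs 5′ to 3′ from 250 bases before to 50 bases after the annotated start, from RefSeq on GRCm38.p6, and capitals mark motif matches. The windows are chr5:75152001-75152300 on the plus strand for Pdgfra, chr13:118714449-118714748 on the plus strand for Fgf10 and chr3:81036166-81036465 on the plus strand for Pdgfc. The Pdgfra window lies downstream of the RefSeq gene start at 75151322, so it describes a later annotated start and not that one.
Pdgfra: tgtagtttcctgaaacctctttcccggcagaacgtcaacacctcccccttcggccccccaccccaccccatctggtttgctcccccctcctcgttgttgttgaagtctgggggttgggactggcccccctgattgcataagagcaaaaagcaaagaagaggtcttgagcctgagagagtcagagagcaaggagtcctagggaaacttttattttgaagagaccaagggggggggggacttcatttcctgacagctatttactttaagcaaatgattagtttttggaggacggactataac
Fgf10: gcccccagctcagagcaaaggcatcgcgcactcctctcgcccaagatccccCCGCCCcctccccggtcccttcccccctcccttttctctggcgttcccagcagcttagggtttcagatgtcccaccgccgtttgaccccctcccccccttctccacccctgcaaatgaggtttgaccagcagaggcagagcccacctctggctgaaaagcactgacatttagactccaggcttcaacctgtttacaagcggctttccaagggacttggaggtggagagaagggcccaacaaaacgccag
Pdgfc: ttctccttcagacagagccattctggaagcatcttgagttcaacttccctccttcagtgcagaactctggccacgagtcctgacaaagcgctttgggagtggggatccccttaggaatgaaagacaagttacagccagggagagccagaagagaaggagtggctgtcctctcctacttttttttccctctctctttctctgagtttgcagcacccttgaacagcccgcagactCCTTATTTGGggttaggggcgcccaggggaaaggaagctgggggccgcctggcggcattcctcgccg
The motifs searched on both strands were TATAAA for the core promoter box, TGANTCA for AP-1, GGGCGG for SP1, CCGGAA for ETS factors and the CArG box, named only. A CArG box can hold the core promoter box within it; the match in Pdgfc did not. Over the 32851 promoters of the table, 13.6%, 7.8%, 35.7%, 14.9% and 1.6% held a match. The Pdgfra window held 0 matches to any of the 5, that of Fgf10 held 1 SP1 match, at -199 relative to the start, and that of Pdgfc held 1 CArG match, at -17. Among the other windows, those of Fgf2 and Pdgfa held SP1 matches, and those of Fgf7 and Fgfr2 held none of the 5. G and C made up 51.0% of the Pdgfra window, 60.7% of that of Fgf10 and 55.0% of that of Pdgfc, against a median of 52.7% over all promoters. Promoters were matched for 7 members; Fgfr1, Pdgfb and Pdgfrb are named only.

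Among the FGF ligands, Fgf7, the keratinocyte growth factor that fibroblasts secrete towards epithelium, had log2 signals of 11.23 and 11.75 in knockout and 11.79 and 11.81 in knockdown, against 11.28, 11.60 and 11.78 in wild type. The knockout arrays fell within or near the wild-type range, and both knockdown arrays lay just above it. Fgf7 differed from wild type by -0.06 ± 0.201 SE in knockout (adjusted p = 0.917), and by 0.25 ± 0.201 SE in knockdown (adjusted p = 0.628), on the log2 scale. The 95% confidence intervals of -0.55 to 0.43 and -0.24 to 0.74 hold neither a change of -1 nor one of 1. The knockdown value was 0.11 without wild-type array 1.

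Fgf10, a related mesenchymal ligand needed for lung and limb bud outgrowth, had log2 signals of 7.52 and 8.82 in knockout and 7.58 and 7.12 in knockdown, against 6.61, 7.72 and 8.08 in wild type. Its arrays overlapped between all groups, and the SD was 0.922 in knockout, 0.321 in knockdown and 0.763 in wild type. The log2 changes of 0.70 ± 0.543 SE in knockout (adjusted p = 0.606) and -0.12 ± 0.543 SE in knockdown (adjusted p = 0.949) had wide intervals, from -0.62 to 2.03 and from -1.44 to 1.21. The knockout value was 1.35 without knockout array 1 (adjusted p = 0.383), 0.05 without knockout array 2 and 0.27 without wild-type array 1.

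Fgf2, the basic FGF, which lacks a classical secretion signal and is mitogenic for fibroblasts, had log2 signals of 7.23 and 5.95 in knockout and 6.15 and 5.86 in knockdown, against 6.14, 6.07 and 6.19 in wild type. A single array, knockout array 1, stood above the rest, and the other 6 lay between 5.86 and 6.19. The change of Fgf2 was 0.46 ± 0.352 SE in knockout (adjusted p = 0.601) and -0.13 ± 0.352 SE in knockdown (adjusted p = 0.908). Leaving out knockout array 1 turned the knockout value to -0.18, and leaving out knockout array 2 gave 1.10 (adjusted p = 0.0765).

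Of the FGF receptor genes, Fgfr1, the main FGF receptor of mesenchymal cells, had log2 signals of 10.17 and 10.11 in knockout and 10.29 and 9.99 in knockdown, against 9.82, 9.90 and 10.04 in wild type. Both knockout arrays and knockdown array 1 lay above the wild-type range by a small margin, and knockdown array 2 lay inside it. The Fgfr1 change was 0.22 ± 0.117 SE in knockout (adjusted p = 0.492) and 0.22 ± 0.117 SE in knockdown (adjusted p = 0.47). The knockdown value was 0.0666 without knockdown array 1 and 0.37 without knockdown array 2. The knockout and knockdown means of 10.14 each differed by -4e-04 ± 0.128 SE (95% interval -0.31 to 0.31). Over all 7 arrays Fgfr1 spanned 0.466 on the log2 scale.

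Fgfr2, whose splice forms bind either epithelial or mesenchymal FGFs, had log2 signals of 8.18 and 7.59 in knockout and 7.05 and 7.51 in knockdown, against 7.49, 7.51 and 7.49 in wild type. The wild-type clones were nearly identical (SD 0.0114), knockout array 1 lay above them and knockdown array 1 below. Fgfr2 stood 0.38 ± 0.206 SE above wild type in knockout (adjusted p = 0.491), with a change of -0.22 ± 0.206 SE in knockdown (adjusted p = 0.677). Knockout exceeded knockdown by 0.60 ± 0.226 SE without overlap of their arrays, and the test was not passed (adjusted p = 0.252). The knockout change was 0.09 without knockout array 1 and 0.68 without knockout array 2. The knockdown change was 0.01 without knockdown array 1 and -0.45 without knockdown array 2. One value per gene cannot tell the splice forms apart.

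Of the PDGF ligand genes, Pdgfa, the chain that signals through the alpha receptor, had log2 signals of 7.79 and 7.63 in knockout and 7.59 and 7.46 in knockdown, against 7.28, 7.58 and 7.58 in wild type. Both knockout arrays lay above wild type, the lower of them by a small margin. For Pdgfa the change was 0.23 ± 0.121 SE in knockout (adjusted p = 0.485) and 0.05 ± 0.121 SE in knockdown (adjusted p = 0.897). The knockout value was 0.15 without knockout array 1 and 0.13 without wild-type array 1. Pdgfb, the chain that binds both receptors and recruits pericytes to vessels, had log2 signals of 5.92 and 5.35 in knockout and 5.37 and 5.45 in knockdown, against 4.97, 5.12 and 5.53 in wild type. These values lay around the array medians of 5.38 to 5.49, and Pdgfb exceeded its array's median on only 2 of 7 arrays. Its change was 0.43 ± 0.224 SE in knockout (adjusted p = 0.484) and 0.20 ± 0.224 SE in knockdown (adjusted p = 0.729). The knockout value of Pdgfb was 0.14 without knockout array 1 and 0.72 without knockout array 2, and the knockdown value was 0.08 without wild-type array 1 and 0.37 without wild-type array 3.

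Pdgfc, a chain that is activated by proteolysis, tissue plasminogen activator being a known activating protease, had log2 signals of 9.52 and 9.95 in knockout and 10.12 and 10.005 in knockdown, against 10.18, 9.89 and 9.58 in wild type. The 3 highest deficient arrays lay within the wild-type range and knockout array 1 just below it. The Pdgfc change was -0.15 ± 0.207 SE in knockout (adjusted p = 0.779) and 0.18 ± 0.207 SE in knockdown (adjusted p = 0.741). The knockdown value was 0.33 without wild-type array 1 and 0.03 without wild-type array 3.

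Pdgfra encodes the alpha receptor, a marker of mesenchymal progenitors and fibroblasts. Its log2 signals were 9.50 and 10.04 in knockout and 11.59 and 10.68 in knockdown, against 11.40, 10.98 and 11.17 in wild type. Both knockout arrays were lower than all 5 other arrays, while the knockdown arrays fell on either side of the wild-type range. The group means were 9.77 ± 0.386 in knockout (SD, n = 2), 11.13 ± 0.641 in knockdown (SD, n = 2) and 11.18 ± 0.211 in wild type (SD, n = 3). The knockout change of -1.42 ± 0.305 SE (95% interval -2.16 to -0.67) did not pass the threshold (adjusted p = 0.152). Knockdown differed from wild type by -0.05 ± 0.305 SE (95% interval -0.80 to 0.69, adjusted p = 0.964), and knockout from knockdown by -1.36 ± 0.334 SE (adjusted p = 0.143). Across 17 alternative settings the knockout value lay between -1.69 and -1.14, with an adjusted p by limma never below 0.108. Several of these settings change only the test and keep the value of -1.42. Without knockout and knockdown arrays 2 the knockout value was -1.69. The knockdown value depended on which array was kept, at -0.50 without knockdown array 1 and 0.40 without knockdown array 2.

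Pdgfrb encodes the beta receptor, known for its role in pericytes and activated fibroblasts. Its log2 signals were 10.51 and 10.63 in knockout and 11.16 and 10.93 in knockdown, against 9.42, 10.24 and 10.48 in wild type. The groups did not overlap, with knockdown highest and wild type lowest, but the lower knockout array stood barely above the highest wild-type array. The group means were 10.57 ± 0.0863 in knockout (SD, n = 2), 11.05 ± 0.164 in knockdown (SD, n = 2) and 10.05 ± 0.56 in wild type (SD, n = 3). The log2 change was 1.00 ± 0.308 SE in knockdown (95% interval 0.25 to 1.75, adjusted p = 0.251) and 0.52 ± 0.308 SE in knockout (95% interval -0.23 to 1.27, adjusted p = 0.527). For both deficient groups together it was 0.76 ± 0.257 SE (adjusted p = 0.339). Wild-type array 1 was the lowest, and without it the change was 0.69 in knockdown and 0.21 in knockout. Without knockout and knockdown arrays 2 the values were 1.12 in knockdown (adjusted p = 0.472) and 0.46 in knockout (adjusted p = 0.849). The 7 pericyte and smooth muscle markers had a mean log2 signal of 5.48 to 6.21 on the knockout arrays, 5.43 to 5.52 on the knockdown arrays and 5.60 to 5.75 on the wild-type arrays. Their median change was 0.20 in knockout and -0.01 in knockdown, with 0 called of 7 by limma. At an unadjusted p under 0.05 limma gave 1 and 0, against 12.8% and 14.1% of all tested genes. The part of these markers in the Pdgfrb values was not tested.

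**Figure D2:**
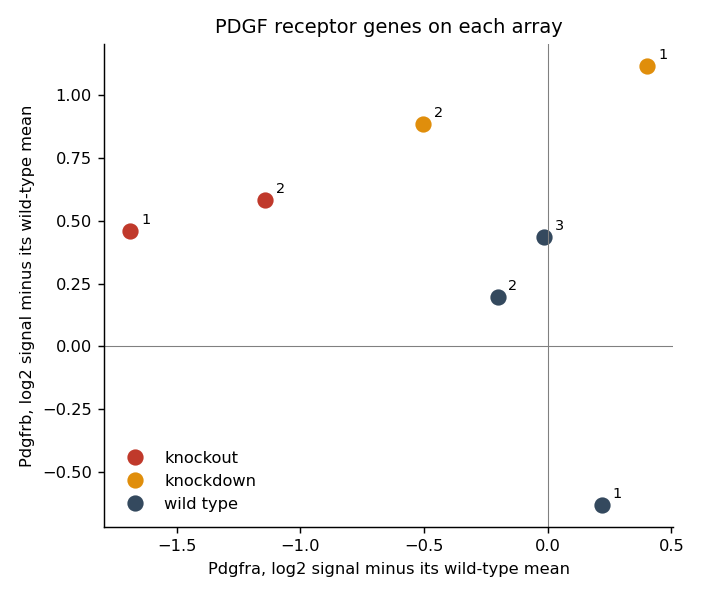
Pdgfra (horizontal axis) against Pdgfrb (vertical axis) on each of the 7 arrays, both as log2 signal minus the wild-type mean of the same gene; numbers beside the points are clone numbers. The knockout arrays lie to the left (-1.69 and -1.14), the knockdown arrays at the top (1.12 and 0.89), and wild-type array 1 at the bottom (-0.63).

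Because each probe set has its own response, the 2 receptor genes were compared only as shifts from their own wild-type means. The log2 ratio of Pdgfra to Pdgfrb, set to 0 at the wild-type mean, was -2.15 and -1.72 in knockout and -0.71 and -1.39 in knockdown, against 0.85, -0.40 and -0.45 in wild type. All 4 deficient arrays lay below the 3 wild-type arrays. On both knockout arrays and on knockdown array 2, Pdgfra stood below and Pdgfrb above its wild-type mean. On knockdown array 1 both stood above it, Pdgfra by 0.40 and Pdgfrb by 1.12. This ratio was formed after the values were seen and has no test.

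The arrays of the compared groups did not overlap for 5 of the 10 genes in knockout against wild type, 4 higher (Fgfr1, Fgfr2, Pdgfa and Pdgfrb) and 1 lower (Pdgfra), where 28.5% of all tested genes did not overlap, 13.2% higher and 15.3% lower. In knockdown against wild type 2 of 10 did not overlap, both higher (Fgf7 and Pdgfrb), against 30.5% of all genes and 17.5% higher. For all 4 deficient arrays against wild type it was 1 of 10, Pdgfrb, which was higher, against 7.70% of genes, 4.15% higher and 3.55% lower. Between knockout and knockdown it was 6 of 10, Fgfr2 and Pdgfa higher and Fgf7, Pdgfc, Pdgfra and Pdgfrb lower in knockout, against 45.0% of genes, 17.8% higher and 27.2% lower. The median log2 change of the 10 genes was 0.31 in knockout and 0.11 in knockdown, beside -0.03 and 0.03 over all tested genes. Both wild-type comparisons share the wild-type arrays, of which array 1 was the lowest of the 3 for Fgf7, Fgf10, Fgfr1, Pdgfa, Pdgfb and Pdgfrb.

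**Figure D3:**
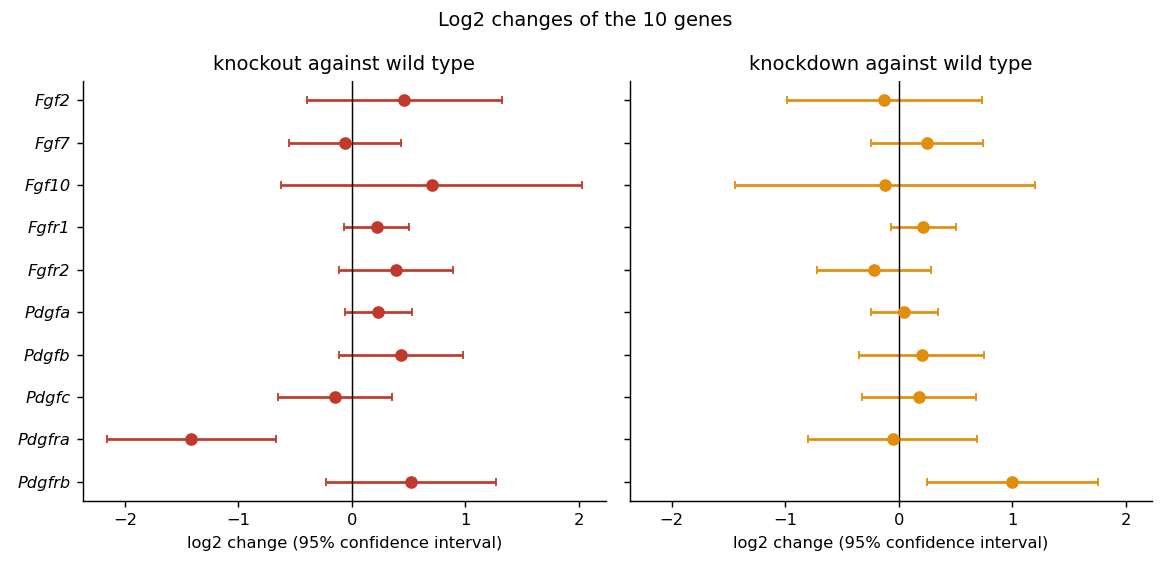
Log2 change of each gene (horizontal axes) in knockout (left) and knockdown (right) against wild type; points are estimates from limma and bars are 95% confidence intervals. The interval excludes 0 for Pdgfra in knockout (-2.16 to -0.67) and for Pdgfrb in knockdown (0.25 to 1.75), and includes 0 for the other 9 genes of each panel.

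By Pearson correlation over the 7 arrays, the tested genes most like Pdgfra were Cox20, an assembly factor of cytochrome oxidase (r = 0.992), Acaca, the acetyl-CoA carboxylase of fatty acid synthesis (r = 0.986), and the zinc finger gene Zfp750 (r = 0.981). Cox20 had log2 signals of 6.84 and 7.12 in knockout and 8.03 and 7.58 in knockdown, against 8.06, 7.79 and 7.78 in wild type. For Fgf10 they were Btf3 (r = 0.987), Pde4d (r = 0.966) and Wdr74 (r = 0.964), and for Pdgfrb they were Zdhhc24 (r = 0.998), the circadian transcription factor gene Dbp (r = 0.990) and Wfdc1 (r = 0.982). Btf3 and Pde4d lie on chromosome 13, as does Fgf10. These are the highest of 16772 genes searched over only 7 arrays that share their groups, and 114, 35 and 173 genes reached a correlation of 0.9 with Pdgfra, Fgf10 and Pdgfrb. Zfp750 lay at 4.31 to 4.46, below every array median (5.38 to 5.49), and Wfdc1 at 5.31 to 5.68, around these medians. The correlated genes are given as a description.

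Other genes of both families and of their pathway were examined as lists. Of 15 other FGF ligand genes 0 were called in any comparison by limma. At an unadjusted p under 0.05 limma gave 0 in knockout and 1 in knockdown (Fgf4), against 12.8% and 14.1% of all tested genes. The median log2 change of these ligand genes was -0.12 in knockout and 0.06 in knockdown, and 5 of the 15 lay below the array median on every array. Fgf5, a regulator of hair growth, had log2 signals of 5.54 and 5.35 in knockout and 5.56 and 5.69 in knockdown. In wild type they were 7.13, 5.95 and 5.48. Wild-type array 1 was the highest, array 2 also lay above every deficient array, and array 3 lay among them (knockout change -0.74 ± 0.455 SE, adjusted p = 0.537). Fgf9 stood at -0.20 in knockout (adjusted p = 0.527), Fgf4 at 0.28 in knockdown (adjusted p = 0.307) and Fgf22 at 0.24 in knockdown (adjusted p = 0.479).

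Among 12 other receptor, co-receptor and PDGF genes, limma likewise called 0 in any comparison. At an unadjusted p under 0.05 it also gave 0, against 12.3% to 17.9% of all tested genes. The decoy receptor gene Fgfrl1 stood at -0.13 in knockout (adjusted p = 0.484), the co-receptor gene Klb at -0.22 in knockout (0.523), and the FGF-binding protein genes Fgfbp3 and Fgfbp1 at 0.18 and 0.11 in knockdown (adjusted p = 0.54 and 0.608). The fourth PDGF ligand gene, Pdgfd, chosen after its values were seen, had log2 signals of 4.30 and 7.07 in knockout and 5.86 and 6.52 in knockdown, against 4.98, 5.86 and 5.15 in wild type. The knockout clones thus spanned the whole range of the 7 arrays (change 0.35 ± 0.788 SE, adjusted p = 0.876).

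Heparan sulphate proteoglycans and the enzymes that build and edit their chains, which FGFs need for receptor binding, were represented by 20 of 21 listed genes. Limma called 0 of 20 in each comparison, with 6 higher and 2 lower in knockout and 2 higher and 1 lower in knockdown at an unadjusted p under 0.05, and medians of 0.10 and 0.14. Over all tested genes the shares were 7.33% higher and 5.50% lower in knockout, and 7.12% higher and 6.99% lower in knockdown. Ext1, a chain polymerase, had log2 signals of 11.39 and 11.52 in knockout and 10.90 and 11.14 in knockdown, against 10.28, 10.65 and 10.72 in wild type. All 4 deficient arrays lay above wild type, at a change of 0.90 ± 0.156 SE in knockout (adjusted p = 0.11) and 0.47 ± 0.156 SE in knockdown (adjusted p = 0.277). Glce, which epimerises the chain sugars, stood at 1.04 in knockout (adjusted p = 0.12), compared with -0.24 in knockdown (adjusted p = 0.627), and the sulphotransferase gene Hs2st1 at -0.48 in knockdown (adjusted p = 0.306). The glypican gene Gpc3, chosen after its values were seen, stood at 5.41 and 5.42 in knockout and 5.71 and 10.16 in knockdown, against 8.73, 10.04 and 9.37 in wild type. Knockdown array 1 was close to the knockout arrays and knockdown array 2 to wild type, with a knockout change of -3.97 ± 1.22 SE (adjusted p = 0.276).

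Adaptors and kinase effectors downstream of the receptors spanned changes of -0.22 to 0.32 in knockout and -0.29 to 0.35 in knockdown. Of 22 listed genes 16 had a single-symbol probe set, and limma called 0 of 16 in each comparison, with medians of 0.05 and -0.06. At an unadjusted p under 0.05 limma gave 1 in knockout and 2 in knockdown, against 12.8% and 14.1% of all tested genes. The adaptor gene Shc1 stood at 0.24 in knockout (adjusted p = 0.332), the phospholipase gene Plcg1 at 0.35 in knockdown (adjusted p = 0.168) and the kinase gene Map2k2 at -0.22 in knockout (adjusted p = 0.416), with -0.27 in knockdown (adjusted p = 0.306).

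**Figure D4:**
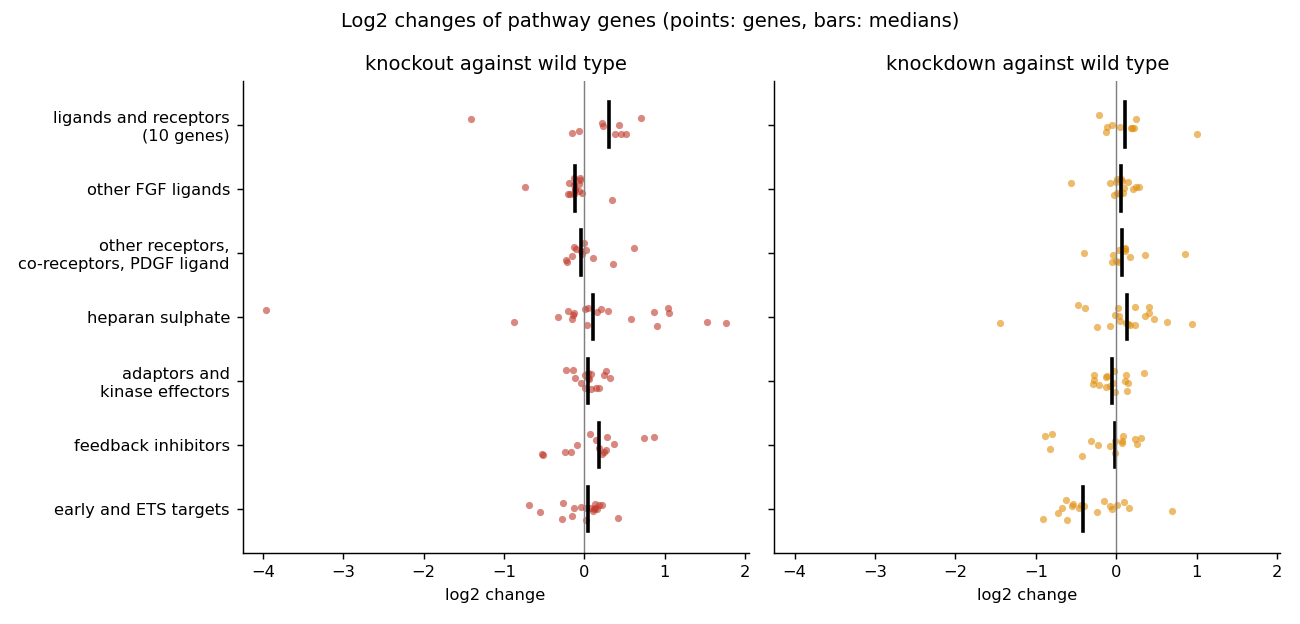
Log2 change against wild type (horizontal axes) of each gene of the lists, in knockout (left) and knockdown (right); points are genes, with vertical scatter for display, and black bars are list medians. The early and ETS target genes have a median of 0.05 in knockout and -0.42 in knockdown.

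The 15 feedback inhibitors, genes whose products dampen receptor tyrosine kinase signalling, held the single called gene of these lists. At an unadjusted p under 0.05 limma gave 3 higher and 2 lower in knockout and 0 higher and 4 lower in knockdown, with 0 called in either and medians of 0.18 and -0.02. The shares of all tested genes in these directions were 7.33% and 5.50% in knockout, and 7.12% and 6.99% in knockdown. Dusp6, the phosphatase that inactivates ERK kinases, had log2 signals of 9.34 and 9.42 in knockout and 8.17 and 8.40 in knockdown, against 9.26, 8.98 and 9.10 in wild type. The knockout arrays lay just above wild type and the knockdown arrays below it. Dusp6 was higher in knockout than in knockdown by 1.10 ± 0.125 SE (2.14-fold, adjusted p = 0.0464), where 0.375% of all genes were called. Against wild type the change was 0.27 ± 0.114 SE in knockout (adjusted p = 0.407) and -0.83 ± 0.114 SE in knockdown (adjusted p = 0.11), so neither passed. The call held in 4 of 17 alternatives, with differences of 0.98 to 1.21 and adjusted p of 0.0326 to 0.307; it ended without any 1 of the 7 arrays (0.0816 to 0.16) and without knockout and knockdown arrays 2 (0.149). Dusp4, a second such phosphatase gene, chosen after its values were seen, had log2 signals of 8.43 and 8.75 in knockout and 7.37 and 6.47 in knockdown, against 7.81, 7.64 and 7.70 in wild type. Its groups were ordered like those of Dusp6, and the difference between knockout and knockdown did not reach the threshold (1.67 ± 0.288 SE, adjusted p = 0.0827). Of the 15 listed genes 10 were higher in knockout than in knockdown and 5 lower. Over all 16801 tested genes 6725 were higher and 9952 lower. Dusp5 and Spry2, also chosen after their values were seen, were among the 5 lower genes, at -0.09 and -0.29.

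Of the 18 early response and ETS target genes, which growth factor signalling induces, limma called 0 in each comparison. At an unadjusted p under 0.05 it gave 1 higher and 2 lower in knockout and 0 higher and 7 lower in knockdown. Of all tested genes, 7.33% were higher and 5.50% lower in knockout at that threshold, and 7.12% higher and 6.99% lower in knockdown. The list medians were 0.05 and -0.42. In knockdown 14 of the 18 were lower than in wild type, as were 43.2% of all genes, and 10 had both arrays below all wild-type arrays, where 12.9% of all genes did. Jun, an AP-1 subunit, had log2 signals of 9.14 and 9.27 in knockout and 8.96 and 9.12 in knockdown, against 9.82, 9.85 and 9.62 in wild type. All 4 deficient arrays lay below wild type, at -0.56 ± 0.106 SE in knockout (adjusted p = 0.13) and -0.72 ± 0.106 SE in knockdown (adjusted p = 0.117). Egr1, an immediate early transcription factor, stood at 6.06 and 5.94 in knockout and 6.78 and 6.44 in knockdown, against 6.92, 6.48 and 6.66 in wild type (knockout change -0.69 ± 0.163 SE, adjusted p = 0.183). Ier2, another immediate early gene, stood at 7.12 and 6.92 in knockout and 6.45 and 6.31 in knockdown, against 6.95, 7.11 and 6.92 in wild type. Both of its knockdown arrays lay below the wild-type range, and knockout array 1 lay just above it (knockdown change -0.62 ± 0.103 SE, adjusted p = 0.129).

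**Figure D5:**
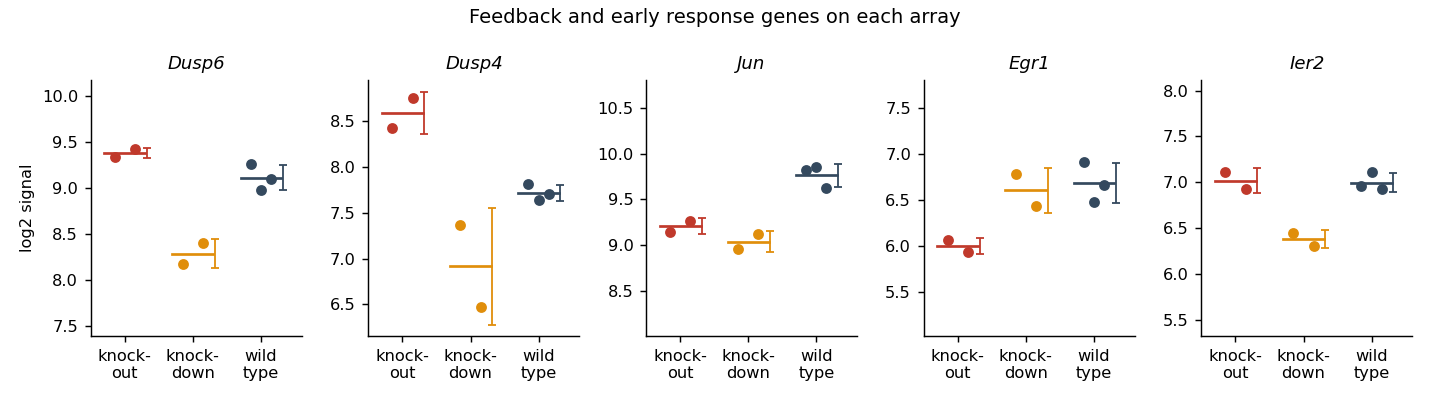
Log2 signal (vertical axes, each panel on its own range) of 2 feedback phosphatase genes and 3 early response genes on every array, with knockout, knockdown and wild-type clones from left to right; points are arrays, lines are group means and the bars beside them are SD (n = 2, 2 and 3). Dusp6 and Dusp4 are highest in knockout and lowest in knockdown, and Jun is lower in both deficient groups than in wild type.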

How the data were processed

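RNA of 7 fibroblast clones was measured on 1 array each. The deposited table holds log2 signals, 1 column per array, a scale judged from their range of 1.81 to 13.7. Affy, run in R 2.8.0, is listed in the submitters' processing notes; how signals were summarised and normalized is not stated. Array medians were 5.38 to 5.49; for arrays, their number limits the precision. Of 34760 probe sets, 21640 had 1 symbol, covering 19937 genes; the probe set with the highest mean represented a gene. Genes above the 25th percentile on at least 2 arrays were tested (16801). Limma 3.58.1 (R 4.3.3, lmFit and eBayes, two-sided) fitted 1 mean per group over all 7 arrays, with 4 residual and 2.06 prior degrees of freedom, and was tested on simulated data. The comparisons were knockout and knockdown against wild type, their mean against wild type, and knockout against knockdown, which tests whether the effects differ. P-values were Benjamini-Hochberg adjusted over all genes; "rose" or "fell" means an adjusted p under 0.05.

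The members and lists were chosen with earlier results of these data known. Named are all members, Tnc, each called gene of a list or else the 2 of smallest p in knockout and in knockdown, and the 3 genes most correlated with each of the 3 members of largest SD. Where the text goes beyond this rule, it says so beside the gene, except for the sex-linked genes Xist and Uty. The alternatives were other filters, normalizations, tests and probe set rules, array weights, a replicate block, fewer groups and each array left out; leaving out knockout and knockdown arrays 2 together was chosen after seeing the data. Gene names were updated through RefSeq (GRCm38.p6).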

Additional observations from a re-analysis of the deposited data

Results flagged for a closer look

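Dusp6 differed between the deficient groups: it was higher in knockout than in knockdown by 1.10 on the log2 scale (limma, adjusted p = 0.0464), with a mean of 9.38 ± 0.0578 in knockout and 8.29 ± 0.159 in knockdown (SD, n = 2 each), beside 9.11 ± 0.138 in wild type (SD, n = 3). The limma call for Dusp6 held in only 4 of 17 alternatives and ended without any 1 of the 7 arrays (adjusted p of 0.0816 to 0.16). Groups of 2 and 3 arrays are too small for a test of outlying samples.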

How the results depend on the processing

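The 0 of 10 members called stood in every comparison under all 17 alternatives (16 for the deficient comparison, where fitting only 2 groups does not apply), with adjusted p no lower than 0.0552; several of these settings called few or no genes at all, as given below. Of 670 recomputed member changes 631 kept their direction and 39 turned, the largest turned value being 0.40. Many could not turn: the other filters, the trend, the probe set rule and fitting only the groups compared left the estimates unchanged. So did leaving out an array of a group outside the comparison. With the replicate block, the turned values were Fgf7 in knockout (0.0516), Fgf10 in knockdown (0.18) and Pdgfc in the deficient comparison (-0.14). Array weights turned Pdgfra in knockdown (0.0386), and centring turned Fgfr1 between knockout and knockdown (0.0753). Without knockout and knockdown arrays 2, Fgf2, Fgf10 and Pdgfra turned in knockdown (0.0221, 0.11 and 0.40), Fgf7 and Pdgfc in the deficient comparison (-0.0416 and -0.0657) and Fgf10 between knockout and knockdown (-0.0573). With 1 array left out, values that turned ranged in knockout from -0.18 to 1.10 (Fgf2), -0.32 to 0.20 (Fgf7) and -0.37 to 0.0687 (Pdgfc). In knockdown they ranged from -0.27 to 0.0221 (Fgf2), -0.55 to 0.18 (Fgf10), -0.45 to 0.0137 (Fgfr2), -0.049 to 0.11 (Pdgfa) and -0.50 to 0.40 (Pdgfra). In the deficient comparison they ranged from -0.15 to 0.49 (Fgf2), -0.0466 to 0.22 (Fgf7), -0.14 to 0.62 (Fgf10), -0.0636 to 0.23 (Fgfr2) and -0.14 to 0.16 (Pdgfc). Between knockout and knockdown they ranged from -0.0547 to 1.23 (Fgf2), -0.15 to 0.15 (Fgfr1) and -0.0591 to 0.51 (Pdgfb).

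Counts over all genes moved more. Knockout against wild type called 28 genes (20 higher, 8 lower), but 79 with the stricter filter, 45 with quantile normalization, 71 with centring (61 higher, 10 lower), 6 with only the groups compared, 2 with the replicate block, 1 without knockout and knockdown arrays 2, and 3 to 77 with 1 array left out. Knockdown called 3, but 0 with only the groups compared, the replicate block, without knockout and knockdown arrays 2 or with any 1 array left out (1618 to 2617 at an unadjusted p under 0.05 by limma). The deficient comparison called 5, but 10 with the stricter filter, 8 with array weights, 0 with the replicate block or without knockout and knockdown arrays 2, and 0 to 5 with 1 array left out. Knockout against knockdown called 63, but 38 without a filter, 111 with the stricter filter, 100 with quantile normalization, 137 with centring, 26 with a trend, 18 with array weights, 0 with only the groups compared, 2 with the replicate block, 0 without knockout and knockdown arrays 2, and 0 to 111 with 1 array left out. The causes were not tested. Whether same-numbered arrays share more than a number could not be told. Their deviations correlated at -0.07 to 0.20 over genes, a weak check because in groups of 2 the deviations mirror each other. Signals near the array median, as for Pdgfb, limit what can be measured there.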
